A study of Rattus norvegicus with 17 samples.

Results

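The transcriptome of the unexposed meibomian gland (MG) was described from the 9 rats that received no UVB, out of 17 rats in the series. The members were the 9 sample columns labelled as controls, 4 Control WT and 5 Control P1.hMR, and the remaining 8 columns were rats of the same genotypes whose eyelids received UVB for 5 days (3 UVB WT and 5 UVB P1.hMR), which served only as another set of animals. All were female Sprague-Dawley rats, given in the labels as 10 to 12 weeks old. WT rats carried no transgene. P1.hMR rats carried the human mineralocorticoid receptor (MR) under the proximal P1 promoter of its own gene, NR3C2, which does not restrict it to the MG. Both genotypes were described together and no test between them was made. Expression is given as TPM, a measure of transcript abundance corrected for gene length and given as a share of each sample's total, so levels can be compared between genes. TPM keeps no read depth, and precision is given by the spread between rats.

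The MG is a modified sebaceous gland of the eyelid. Its acinar cells, the meibocytes, build wax esters and cholesteryl esters from very long acyl chains, fill with lipid droplets and burst as a whole to release meibum, which passes through a keratinised duct to the lid margin and covers the tear film. In the eyelid the gland lies among hair follicles, striated lid muscle, connective tissue and conjunctiva, so dissected tissue can carry the transcripts of all of these.

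NR3C2 was listed at 0 TPM in all 4 Control WT rats and at 6.77 to 9.31 TPM in the 5 Control P1.hMR rats. Between 12441 and 12737 genes per rat reached 1 TPM, and 12662 of the 17251 genes had a mean of at least 1 TPM over the 9 rats. Correlations of log2(TPM + 1) between pairs of rats ran from 0.982 to 0.993 across genes, and no 2 rats had identical values. The 5 defining markers chosen for the gland and its neighbours, Awat2, Elovl4, Krt79, Krt27 and Acta1, were present in every rat.

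Lipid synthesis genes stood at the top of the transcriptome. Scd, a stearoyl-CoA desaturase that makes monounsaturated fatty acids, had the highest level of all genes, with a lowest value of 25353, a median of 27643 and a highest value of 31198 TPM over the 9 rats. Awat2, the acyltransferase that joins fatty alcohols and acyl-CoA into wax esters, came next with 9428, 10838 and 12062 TPM. These genes held 4.29 to 5.23% of all listed TPM. Both genes were at a similar level in all rats, with an SD of log2(TPM + 1) of 0.10 for Scd and 0.11 for Awat2.

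The 20 genes of highest mean TPM together held a median of 13.8% of the listed TPM over the rats, and 404 genes held 50% of it. Besides Scd and Awat2 they included Elovl1, an elongase of saturated and monounsaturated acyl chains, at 5084 to 7363 TPM. Apoe, a carrier of lipids, had 4717 to 7223 TPM, and the acyl-CoA binding protein Dbi had 3053 to 4593 TPM. Fabp5, an epidermal fatty acid binding protein, had 2241 to 3448 TPM. The keratins Krt14, Krt5 and Krt13, the galectin Lgals7 and the protease inhibitor Cst6, all known from squamous epithelium, were among the 20. Others were the translation genes Eef1a1, Tpt1, Rplp0, Rps2, Rps27 and LOC108352650, annotated as the ribosomal protein S29, and LOC102549542, for which the files give no description. The SD of log2(TPM + 1) over the 9 rats lay between 0.05 and 0.26 for these 20 genes, and none reached 0.5. Ribosomal protein genes, 80 by symbol, held 9.37 to 11.0% of the listed TPM.

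**Figure D1:**
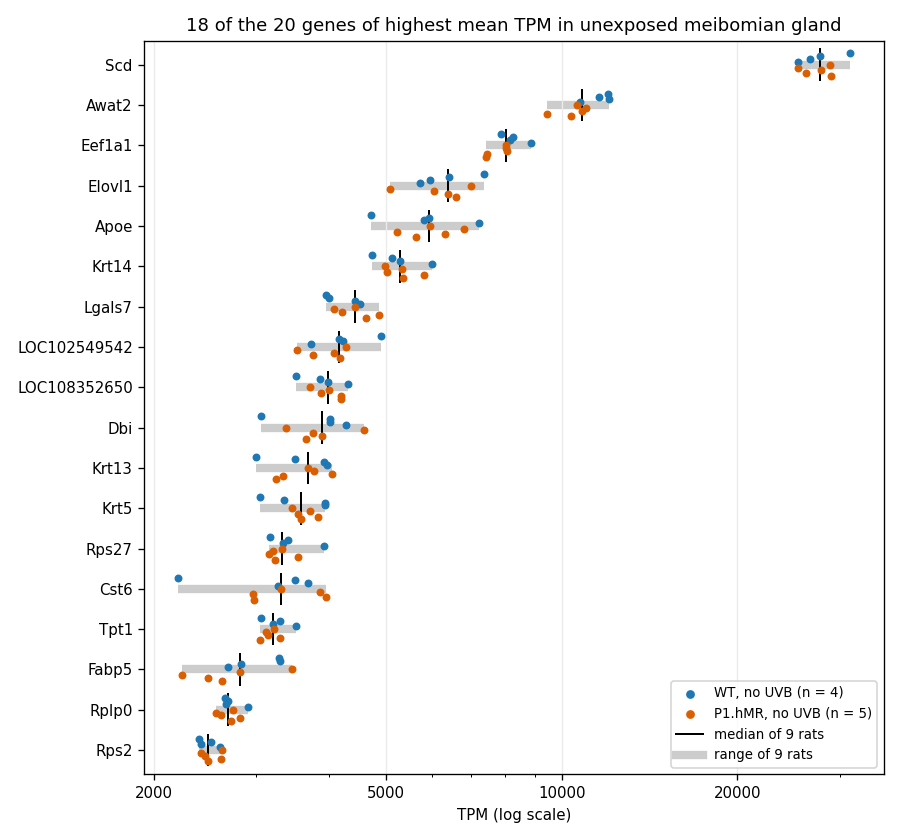
TPM of 18 of the 20 genes of highest mean in unexposed MG, on a log scale, with 1 point per rat, WT in blue (n = 4) and P1.hMR in orange (n = 5). The grey bar is the range and the black tick the median of the 9 rats, and Scd lies apart from all other genes at 25353 to 31198 TPM.

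To see which tissues make up the sample, 25 gene lists for tissues, cell types and processes were summed in each rat. Of their 288 symbols, 250 were matched to the table, and the others were not analysed here. In bulk tissue a lower sum can come from fewer cells of a type or from less RNA per cell, and these cannot be told apart. The acinus list, 27 genes of meibomian lipid synthesis and storage, gave by far the largest sum, with 60105 TPM in the lowest rat, 64810 TPM in the median rat and 73660 TPM in the highest, or 7.23 to 8.91% of the listed TPM. The epidermis list followed with a median of 13703 TPM over 14 genes, then the duct list with 6771 TPM over 7 genes and the oxidative phosphorylation list with 5809 TPM over 12 genes. The largest members of the epidermis list were Krt14 and Krt5, with means of 5289 and 3595 TPM. The study also stained KRT14 in the MG, so this sum cannot be assigned to epidermis alone. The conjunctiva and goblet cell list had a median of 5042 TPM and the skeletal muscle list 4486 TPM. Sums were smaller for stroma (2560 TPM), the inner root sheath of the hair follicle (1058 TPM), smooth muscle and pericytes (724 TPM), the hair shaft and matrix (652 TPM) and macrophages and dendritic cells (409 TPM). Lists of unequal size and choice of genes do not give cell shares, so the order describes RNA only.

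**Figure D2:**
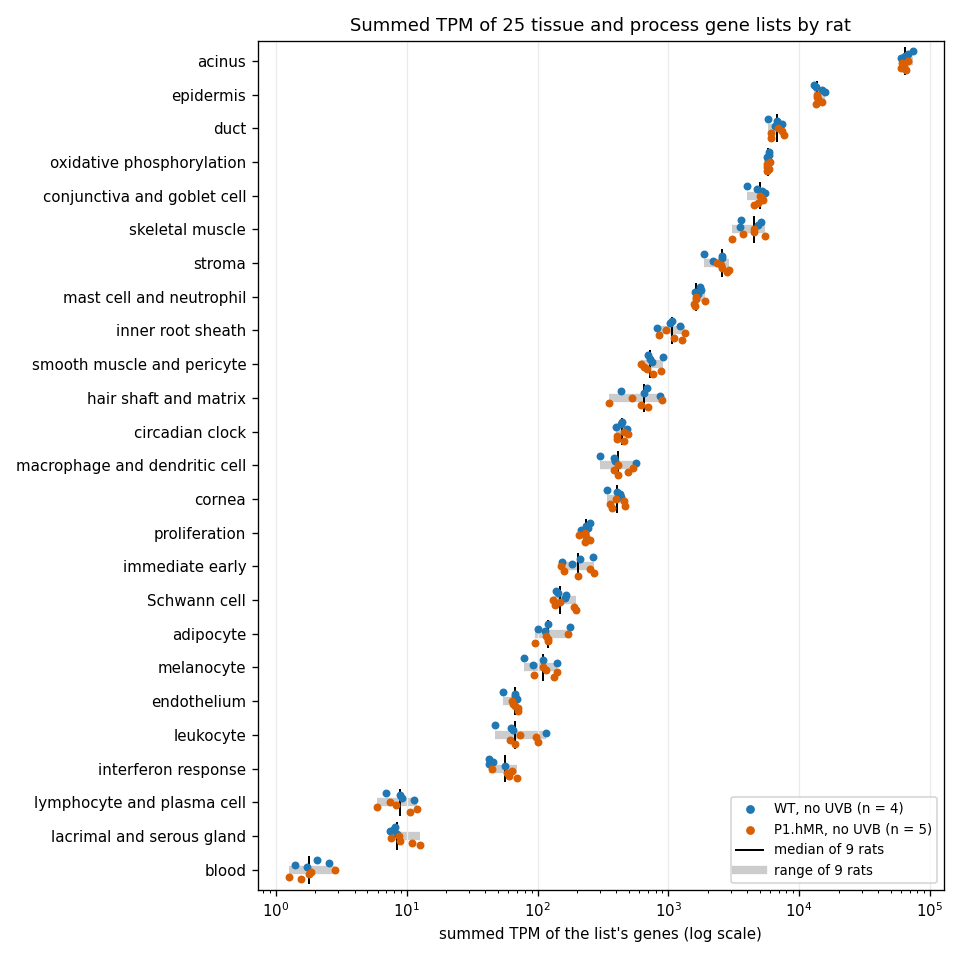
Summed TPM of the genes of each of 25 lists, on a log scale, with 1 point per rat, WT in blue (n = 4) and P1.hMR in orange (n = 5), the range as a grey bar and the median as a black tick. The acinus list has the largest sum in every rat, and the hair shaft and matrix list has the widest spread, from 350 to 895 TPM.

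Within the acinus list, all 27 measured members had a mean of at least 1 TPM, and Awat2 and Elovl1 were the most abundant after Scd. Elovl4, the elongase that makes the longest acyl chains of meibum, had 1814 TPM in the lowest rat, 2266 TPM in the median rat and 2701 TPM in the highest. Awat1, a second wax synthase, had 859 to 1110 TPM. Elovl3, another elongase, had 783 to 1129 TPM, and Elovl5 and Elovl7 had means of 238 and 20.1 TPM. Far2 and Far1, which reduce acyl-CoA to the fatty alcohols of wax esters, had means of 1529 ± 261 TPM (SD, n = 9) and 771 ± 72.9 TPM (SD, n = 9). Soat1, which makes cholesteryl esters, had 1372 ± 175 TPM (SD, n = 9). Dgat2 and Dgat1, the enzymes of the last step of triglyceride synthesis, were lower, at 343 ± 34.5 TPM and 16.1 ± 1.41 TPM (SD, n = 9 each). The lipid droplet proteins Cidea and Plin2 had 2299 ± 152 TPM and 1546 ± 85.0 TPM (SD, n = 9 each), while Plin5 had only 3.74 ± 1.45 TPM (SD, n = 9). Pparg, the nuclear receptor of meibocyte differentiation, had 90.8 to 111 TPM.

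The acinar genes varied between rats by somewhat more than the typical gene. Their median SD of log2(TPM + 1) was 0.16, against 0.12 over all 12662 genes, and 2 of 27 reached an SD of 0.5, against a background of 2.07% of all genes (262 of 12662). These were Plin5 and Mc5r, the melanocortin receptor of sebaceous cells. Plin5 had a mean of 3.74 TPM, and 183 of 4536 genes at 1 to 10 TPM reached this SD. Mc5r was at 13.2 TPM in Control WT rat 2 and at 21.8 to 45.0 TPM in the other 8 rats. The acinar genes followed Awat2 only loosely, with a median r of 0.32, against -0.11 over all genes. Over all pairs of the 27 acinar genes the median r was 0.40, against 0.05 over all gene pairs. Within the UVB groups, centred by genotype, these medians were 0.16 with Awat2 and 0.19 over pairs. Only Elovl4 of the other 26 reached a Pearson r of 0.8 with Awat2 over the 9 rats, where 0.569% of all genes did (72 of 12661). The count of 72 became 275 without Control WT rat 3, 133 without Control P1.hMR rat 1, and 113 without Control P1.hMR rat 2 or rat 4. The genes at 10 TPM or more that followed Awat2 most closely were LOC103690020 (r = 0.97), Eif4e, the cap-binding translation factor (r = 0.93), the RNA-binding gene Zcrb1 (r = 0.92), Cers3, which makes ceramides with very long acyl chains (r = 0.91), and Mxd3 (r = 0.90). These r values chose the genes and carry no test. Within the UVB groups, centred by genotype, r with Awat2 was 0.65, 0.83, 0.31, -0.39 and -0.80 for the same genes in that order, so the last 2 had the opposite sign there.

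The most abundant duct and epidermal genes were Krt14, Krt5 and Cst6. The median SD was 0.14 over the duct list and 0.17 over the epidermis list, against 0.12 over all genes. Krt79, a keratin of the gland duct, had 1478, 1529 and 1691 TPM in the lowest, median and highest rat, with an SD of log2(TPM + 1) of 0.08. Krt17, a keratin of ducts and follicles, had 1540 ± 149 TPM (SD, n = 9), and Krt80 had 230 ± 16.8 TPM (SD, n = 9). Gata6, a transcription factor of the sebaceous duct, had 14.8 ± 2.77 TPM (SD, n = 9). Cst6 was the most abundant gene of the duct list and ran from 2203 TPM in Control WT rat 1 to 3954 TPM in Control P1.hMR rat 4. Among epidermal genes, the basal keratins Krt14 and Krt5 had 5289 ± 401 TPM and 3595 ± 292 TPM (SD, n = 9 each). The suprabasal Krt1 and Krt10 had 1355 ± 199 TPM and 820 ± 99.3 TPM (SD, n = 9 each), and the cornified envelope gene Lor had 195 ± 36.2 TPM (SD, n = 9). Of the 14 epidermal genes, 1 reached an SD of 0.5, against 2.07% of all genes. That gene, Krt77, a keratin of sweat gland ducts, had 8.98 to 47.2 TPM, and the highest rat was Control WT rat 4.

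No block of duct genes followed Krt79. The SD of Krt79, 0.077, lay below the lower quartile of all genes, 0.082, so r with it says little about shared variation in the duct. None of the other 6 duct genes reached r = 0.8 with it, and their median r was -0.08. Over all genes, 0.324% did (41 of 12661), a count that became 66 to 109 without any 1 of Control WT rats 1, 2 and 3 and Control P1.hMR rats 1, 4 and 5. Rrs1, a ribosome assembly factor (r = 0.94), Slc25a5, the mitochondrial ADP/ATP carrier (r = 0.92), Kbtbd4, Lrch1 and Mrpl46 led the list, and each varied by an SD of no more than 0.12. Within the UVB groups their r with Krt79 ran from -0.18 to 0.45. Across the 7 duct genes, the median r of all pairs was 0.22, against 0.05 over all pairs of the 12662 genes.

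Genes of the inner root sheath of the hair follicle varied together, with a median r of 0.83 over all pairs of the 9 list members, against 0.05 over all gene pairs. The inner root sheath wraps the growing hair, and its keratins occur in anagen follicles. Krt27, its lead gene here, was at 98.4 TPM in Control WT rat 4, at 134 TPM in the median rat and at 188 TPM in Control P1.hMR rat 2. Its partner keratins varied with it. Krt71 ran from 217 to 392 TPM (r = 0.98 with Krt27), Krt25 from 167 to 324 TPM (r = 0.98), Krt73 from 37.7 to 63.0 TPM (r = 0.96) and Krt28 from 17.2 to 35.0 TPM (r = 0.92), and Ly6g6g was the other gene of the closest 5 (r = 0.92). In each of the 4 keratins Control WT rat 4 was the lowest and Control P1.hMR rat 2 the highest or next to it. Of the 8 other members of the list, 7 reached r = 0.8 with Krt27, namely these 4, Krt26, Krt72 and Tchh, the trichohyalin of the sheath, against 0.284% of all genes (36 of 12661). The count of 36 became 69 without Control WT rat 1, 56 without rat 2 and 83 without rat 4, and 112 and 58 without Control P1.hMR rat 2 and rat 4. The remaining member, Krt75, is a keratin of the companion layer and had 173 ± 17.6 TPM (SD, n = 9). Within the UVB groups the median r of the list with Krt27 was 0.95, and that of the 4 keratins above ran from 0.93 to 0.99.

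The promoters of these keratins are shown because the genes moved together and share a motif near the start. RefSeq windows of 300 bases, from 250 before to 50 after a gene's start in GRCr8, were searched on both strands for the TATA box letters TATAAA, the E-box CAGCTG and the DR1 motif. The E-box reads the same on both strands, and the motifs did not overlap in the sequences printed. TATAAA was in 8 of the 9 windows of the inner root sheath list, or 88.9%, and in 14.2% of all 33469 windows. It was in 7.20% of the 10637 windows of genes at a mean of 1 TPM or more that could be matched by symbol. In Krt27, Krt71, Krt25, Krt73 and Krt28 it lay on the coding strand, with its first base 62, 34, 30, 49 and 36 bases before the start. The 150 bases before the start are printed 5′ to 3′ on the coding strand, with TATAAA and CAGCTG in capitals. Krt27 is at chr10:84800132-84800281, Krt71 at chr7:134761034-134761183, Krt25 at chr10:84771198-84771347, Krt73 at chr7:134815029-134815178 and Krt28 at chr10:84824858-84825007, all on the minus strand and upstream of the first exon.
Krt27: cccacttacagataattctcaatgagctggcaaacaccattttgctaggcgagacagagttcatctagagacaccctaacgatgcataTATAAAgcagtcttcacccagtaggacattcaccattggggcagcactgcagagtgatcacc
Krt71: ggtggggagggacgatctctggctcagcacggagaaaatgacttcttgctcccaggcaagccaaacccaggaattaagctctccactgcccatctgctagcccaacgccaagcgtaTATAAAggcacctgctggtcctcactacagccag
Krt25: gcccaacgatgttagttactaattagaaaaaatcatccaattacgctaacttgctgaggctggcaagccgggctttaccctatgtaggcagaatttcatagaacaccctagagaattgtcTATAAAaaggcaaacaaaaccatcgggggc
Krt73: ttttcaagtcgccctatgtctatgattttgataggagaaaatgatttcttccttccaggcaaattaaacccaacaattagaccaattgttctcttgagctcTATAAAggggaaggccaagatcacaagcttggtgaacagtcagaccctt
Krt28: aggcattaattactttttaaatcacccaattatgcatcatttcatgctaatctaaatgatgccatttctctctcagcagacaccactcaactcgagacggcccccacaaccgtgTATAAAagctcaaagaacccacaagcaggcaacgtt

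The cuticle and cortex keratins of the hair shaft varied more than the sheath keratins. Krt31, a cortex keratin, was at 59.3 TPM in Control P1.hMR rat 3, at 112 TPM in the median rat and at 163 TPM in Control P1.hMR rat 2. Control WT rat 4, the lowest rat for Krt27, was the next highest for Krt31 at 157 TPM. Krt83 ran from 31.2 to 99.1 TPM, Krt81 from 41.5 to 132 TPM and Krt86 from 56.7 to 164 TPM, and these were the 3 of 16 members whose SD reached 0.5, against 2.07% of all genes. The median SD of the list was 0.39, against 0.12 over all genes, and the median r of its pairs was 0.74 in unexposed rats and 0.79 within the UVB groups, against 0.05 over all pairs. Of its 16 members, Msx2 and Padi3 reached r = 0.8 with Krt27, against 0.284% of all genes, and the median r of the list with Krt27 was 0.40 in unexposed rats and 0.84 within the UVB groups. Matrix genes were low, with Shh at a mean of 0.85 TPM, Lef1 at 3.27 TPM and Hoxc13 at 6.59 TPM. TATAAA was in 5 of 12 windows of this list.

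Striated muscle was present in every rat and was of the fast type. Acta1, the skeletal muscle actin, was at 585 TPM in Control P1.hMR rat 5, at 791 TPM in the median rat and at 957 TPM in Control P1.hMR rat 4. Myh4, the fast IIb myosin heavy chain, had 234 to 435 TPM, while Myh7, the slow myosin heavy chain, had a mean of 0.34 TPM. The fast troponins Tnnt3, Tnni2 and Tnnc2 had means of 383, 279 and 424 TPM, and their slow counterparts Tnnt1, Tnni1 and Tnnc1 had 3.86, 1.34 and 1.34 TPM. Muscle genes followed Acta1. Mylpf, the fast regulatory light chain, had r = 0.97, Ckm, the muscle creatine kinase, r = 0.97, and Myh4 r = 0.97, and Pde4dip and the sarcoplasmic reticulum channel Tmem38a were the other 2 of the 5 closest genes. Of the 22 other members at 1 TPM or more, 12 reached r = 0.8, against 1.37% of all genes (173 of 12661, or 291 without Control P1.hMR rat 5). With Acta1, the list had a median r of 0.89 in unexposed rats and of 0.89 within the UVB groups. The slow light chain genes Myl2 and Myl3 and the fast myosin-binding protein Mybpc2 were the 3 of 23 members with an SD of at least 0.5, against 2.07% of all genes. Myl2 and Myl3 had means of 5.19 and 2.98 TPM, and 183 of 4536 genes at 1 to 10 TPM reached this SD. Myl2 ran from 1.56 to 10.8 TPM and was highest in Control P1.hMR rat 1, while Acta1 was highest in Control P1.hMR rat 4.

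The promoters of Acta1 and Myh4 are printed beside that of Awat2, to set the muscle genes against the acinar lead gene. CAGCTG, the E-box bound by myogenic factors among others, was in 7 of 21 windows of the skeletal muscle list (33.3%) and in 5 of 23 of the acinus list (21.7%). It was in 15.1% of all windows and in 16.3% of those of genes at a mean of 1 TPM or more. The share ran from 0 of 5 in the melanocyte list to 3 of 6 in the adipocyte list. The circadian clock list had 4 of 12 (33.3%), so the share was not particular to muscle. TATAAA was in 6 of 21 windows of the skeletal muscle list and in 2 of 23 of the acinus list. The DR1 motif, bound by PPAR and RXR, was in none of the windows of the 25 lists and in 0.0538% of all windows (18 of 33469). With a motif this rare in all windows, lists of this size would be likely to hold no match in any case. Its absence therefore does not show that these genes lack sites for PPAR, and binding was not tested. Of the stretches printed, that of Awat2 held CAGCTG at 140 and 128 bases before the start and no TATAAA. That of Myh4 held CAGCTG at 81 and TATAAA at 45 bases before the start, and that of Acta1 held TATAAA at 29 bases, with CAGCTG at 237 bases, outside the printed stretch. A match is a description of letters in these windows. Acta1 is at chr19:68784195-68784344 and Awat2 at chrX:69530665-69530814, both on the minus strand, and Myh4 at chr10:52421998-52422147 on the plus strand, all in GRCr8 and upstream of the first exon.
Acta1: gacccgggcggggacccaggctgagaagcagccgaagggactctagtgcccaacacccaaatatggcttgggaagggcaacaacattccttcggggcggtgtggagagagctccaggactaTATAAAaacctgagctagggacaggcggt
Myh4: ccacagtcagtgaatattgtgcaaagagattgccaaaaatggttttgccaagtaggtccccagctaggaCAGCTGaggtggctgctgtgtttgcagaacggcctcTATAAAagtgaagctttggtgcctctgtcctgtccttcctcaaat
Awat2: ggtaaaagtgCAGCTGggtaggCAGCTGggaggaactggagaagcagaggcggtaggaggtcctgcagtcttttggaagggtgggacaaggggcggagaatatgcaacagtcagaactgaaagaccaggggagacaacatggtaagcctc

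Connective tissue varied along its collagens. Col1a1, the type I collagen chain, was at 361 TPM in Control WT rat 1, at 569 TPM in the median rat and at 656 TPM in Control P1.hMR rat 5. Sparc, a matrix glycoprotein, was the most abundant stromal gene, at 638 to 988 TPM. Col3a1 had 294 to 518 TPM and the proteoglycan Dcn 213 to 378 TPM. NEWGENE_621351 followed Col1a1 most closely (r = 0.99), followed by Col5a2 (r = 0.96), AABR07033887.1, Mxd1 and Morf4l1. Of the 13 other stromal genes, 6 reached r = 0.8 with Col1a1, namely Col3a1, Col5a1, Col6a1, Col6a2, Fbn1 and Sparc, against 1.9% of all genes (241 of 12661). That count became 564 without Control WT rat 4 and 385 without Control P1.hMR rat 3. No stromal gene reached an SD of 0.5.

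Vessels, nerve, pigment cells and fat made smaller contributions. The smooth muscle genes Tagln and Acta2 had 248 ± 38.8 TPM and 245 ± 29.7 TPM (SD, n = 9 each). Endothelial genes summed to 54.2 TPM in Control WT rat 1 and to 63.8 to 71.3 TPM in the other 8 rats, with Emcn, an endothelial sialomucin, at a mean of 19.0 TPM. Schwann cell genes, which include those of peripheral myelin, were measured in all rats and summed to 130 to 196 TPM. Pmel, a structural protein of melanosomes, had 32.3 to 65.1 TPM and Tyrp1, an enzyme of melanin synthesis, 21.3 to 44.8 TPM. Adipocyte genes differed in level and in spread. Cfd, Fabp4 and Lpl had means of 62.5, 35.2 and 14.7 TPM, with SDs of log2(TPM + 1) of 0.32, 0.23 and 0.16. Adipoq, the adipocyte hormone adiponectin, was at 2.91 TPM in the lowest rat, at 5.41 TPM in the median rat and at 17.6 TPM in Control WT rat 2, and 4 of the 7 adipocyte genes at 1 TPM or more reached an SD of 0.5, against 2.07% of all genes. These were Adipoq, Retn, Plin1 and Cidec. Of the red cell genes, only Alas2, at 0.29 to 1.55 TPM, and Slc4a1, at 0.64 to 1.58 TPM, were listed. The haemoglobin genes Hba-a1, Hba-a2, Hbb and Hbb-b1 were not, so the blood content of the samples cannot be judged.

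Myeloid genes gave the clearest immune signal, and whether the cells were resident in the tissue was not tested. Ptprc, the pan-leukocyte antigen CD45, was at 1.38 TPM in Control WT rat 1, at 2.45 TPM in the median rat and at 3.62 TPM in Control WT rat 4. These levels are low, so counting error may enter every r with Ptprc, here and below. Cd74, the invariant chain of antigen-presenting cells, ran from 196 to 366 TPM and followed Ptprc with r = 0.98. Csf1r, the macrophage growth factor receptor, had 9.76 to 17.6 TPM (r = 0.98), and Cd207, the langerin of Langerhans cells, had 13.1 to 31.8 TPM. Zfp511, RGD1565367 and Tgfb3 were the other 3 of the 5 genes closest to Ptprc. Within the UVB groups r with Ptprc was 0.73 for Cd74 and 0.73 for Csf1r, but 0.40, -0.26 and -0.66 for these 3. Of 10 macrophage and dendritic cell genes, 5 reached r = 0.8 with Ptprc, and so did 3 of 4 leukocyte genes and the basal keratins Krt5 and Krt14, against 2.5% of all genes (316 of 12661). That count became 167 without Control WT rat 1 and 575 without Control WT rat 2.

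Lymphocyte genes were low in all rats, though Cd3e and Cd3g were at a level like that of Ptprc. The T cell receptor chains Cd3d, Cd3e and Cd3g had means of 0.40, 2.02 and 2.22 TPM, and the B cell genes Cd79b and Ms4a1 had means of 0.04 and 0.01 TPM. Cd79a and Jchain, of the same list, had means of 0.84 and 1.01 TPM. The neutrophil granule genes Mpo and Camp had means of 0.02 and 0.25 TPM, and the mast cell genes Cpa3 and Cma1 had 2.00 and 3.07 TPM. S100a8 and S100a9, listed with neutrophils but also expressed by keratinocytes, had 1210 to 1499 TPM and 307 to 417 TPM. S100a8 had its highest value in Control P1.hMR rat 3, whose Ptprc was at the median.

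Acinar genes ran against the leukocyte marker more often than with it. Among the 27 acinar genes, 7 had r = -0.8 or lower with Ptprc, namely Elovl4, Far2, Soat1, Scd, Cidea, Gpam and Acsbg1, and 348 of 12661 genes did (2.75%). None reached r = 0.8. The median r of the acinus list with Ptprc was -0.64, against 0.03 over all genes, and -0.44 within the UVB groups. The summed acinus list was highest in Control WT rat 1, at 73660 TPM, where the macrophage and dendritic cell list was lowest, at 302 TPM. TPM are shares of a fixed total, and the part this plays was not tested.

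Ocular surface epithelium was represented by squamous keratins. Krt13 and Krt4, keratins of non-cornified stratified epithelium such as conjunctiva, had 2999 to 4035 TPM and 942 to 1401 TPM. Of the goblet cell genes, Tff1, Tff3 and Spdef were low, at means of 0.49, 0.45 and 1.29 TPM, while Fcgbp had a mean of 37.0 TPM. The mucin genes Muc5ac and Muc4 were not listed, so their levels are unknown. Krt12, the keratin of corneal epithelium, was at 12.6 TPM in Control WT rat 3 and at 3.07 to 7.21 TPM in the other 8 rats. The simple epithelial keratins Krt8 and Krt18, the mucus protein Fcgbp, Spdef and Agr2, a secretory disulphide isomerase, were the 5 of 8 members whose SD reached 0.5, against 2.07% of all genes. Agr2 was at 7.94 and 6.97 TPM in Control P1.hMR rats 5 and 4 and at 0.58 to 2.26 TPM in the other 7. The lacrimal genes Ltf and Aqp5 had means of 0.01 and 2.82 TPM.

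To ask whether the tissues vary together, the 6 lead genes Awat2, Krt79, Krt27, Acta1, Col1a1 and Ptprc were compared in all 15 pairs over the 9 rats with two-sided exact permutation tests. None of the 15 pairs passed an adjusted p of 0.05 (Benjamini-Hochberg), by Pearson r or by Spearman rho, and 1 pair by Pearson r and 0 by Spearman rho had an unadjusted p under 0.05. That pair was Awat2 and Ptprc, with r = -0.69 (exact permutation p = 0.0392, adjusted p = 0.589) and rho = -0.68 (exact permutation p = 0.0503, adjusted p = 0.755). Without the 2 rats farthest from the median of Awat2, Control WT rat 3 and Control P1.hMR rat 4, r was -0.74, and centred within genotype it was -0.62. The unadjusted exact permutation p of this pair was 0.0833 with median-of-ratios scaling and 0.0688 centred within genotype, and 0.0247 to 0.118 with 1 rat left out, so it did not stay under 0.05. The next largest were Krt79 and Acta1, with r = 0.47 (exact permutation p = 0.193, adjusted p = 0.916), rho = 0.55 (exact permutation p = 0.133, adjusted p = 0.831) and r = 0.28 without the 2 farthest rats. The 15 values of r ran from -0.69 to 0.47. With 9 rats, moderate relations between tissues may pass unseen, and a p above the threshold does not show that they are unrelated.

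Most of the transcriptome was even between animals. Over the 12662 genes at a mean of 1 TPM or more, the SD of log2(TPM + 1) had a median of 0.12 and quartiles of 0.08 and 0.18. An SD of at least 0.5 was reached by 262 genes (2.07%), and of at least 1 by 74 genes. Those at an SD of at least 0.5 were mostly low genes. They were 183 of the 4536 genes at 1 to 10 TPM, 72 of the 6738 at 10 to 100 TPM and 7 of the 1388 at 100 TPM or more. Mitochondrial respiration genes were the most even of the lists, with a median SD of 0.05 over the 12 genes chosen, which did not include Atp5f1e (SD of 0.93). Atp5f1b, a catalytic subunit of ATP synthase, ran only from 1474 to 1592 TPM, and the sum of the list differed by 1.06 times between the highest and the lowest rat.

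Lists of processes ranged from even to uneven. Proliferation genes summed to 209 to 251 TPM, with Mki67, a marker of dividing cells, at 14.3 to 19.7 TPM. Immediate early genes, which respond within minutes to many stimuli, summed to 151 to 269 TPM, and Fos, Egr1 and Atf3 were the 3 of 7 whose SD reached 0.5, against 2.07% of all genes. Egr1 ran from 21.5 to 74.3 TPM and Atf3 from 5.03 to 20.3 TPM. The pairs of this list had a median r of 0.69, and of 0.86 within the UVB groups. Interferon response genes summed to 42.7 to 69.3 TPM, and their pairs had a median r of 0.50, and of 0.86 within the UVB groups. Clock genes summed to 396 to 495 TPM, and 1 of 11, Per1, reached an SD of 0.5, against the same share. The times at which tissues were collected were not used here.

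**Figure D3:**
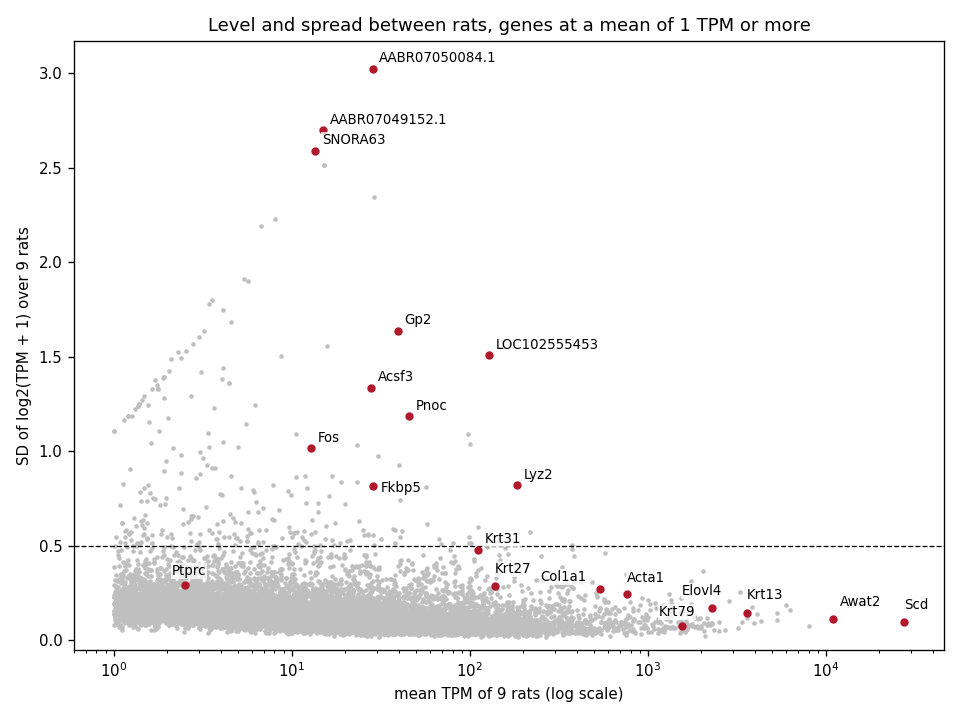
SD of log2(TPM + 1) over the 9 unexposed rats against mean TPM on a log scale, for the 12662 genes at a mean of 1 TPM or more, each a grey point, with named genes in red. The dashed line is an SD of 0.5, which 262 genes reach, and Scd and Awat2 lie at the lower right with SDs of 0.10 and 0.11.

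The 20 genes of largest SD at a mean of 10 TPM or more were a mixed set of small nucleolar RNAs, gene models without a description and genes of known function. Some were listed at 0 in several rats. AABR07050084.1, which had the largest SD of all at 3.02, was at 0 TPM in 5 rats, at 15.7 and 13.8 TPM in Control WT rat 4 and Control P1.hMR rat 1, and at 110 and 116 TPM in Control P1.hMR rats 4 and 5. The small nucleolar RNA SNORA63 was at 0 TPM in 5 rats and at 14.8 to 51.1 TPM in 4, and SNORA70 at 0 TPM in 2 rats and at 12.9 to 55.1 TPM in 7. LOC103690821 and LOC103694169, both described as the ribosomal protein L39, had the same values in every rat, from 0 TPM in 4 rats to 58.1 TPM in Control P1.hMR rat 1. The quantification did not separate these 2 copies, and they are read here as 1 measurement. The others without a described function were AABR07017250.1, AABR07033590.1, ENSRNOG00000060816, AABR07001902.1 and SNORD22.

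Among the annotated genes, Gp2, a glycoprotein of mucosal epithelium and secretory granules, ran from 2.12 TPM in Control WT rat 1 to 104 and 124 TPM in Control P1.hMR rats 5 and 4. Lao1, an L-amino acid oxidase, had 19.1 to 267 TPM and was highest in Control WT rat 2. Pnoc, the precursor of nociceptin, had 5.24 to 83.2 TPM. Fos, the immediate early transcription factor, was at 15.0 to 25.4 TPM in 4 rats, Control WT rat 1 and Control P1.hMR rats 2, 4 and 5, and at 4.15 to 7.62 TPM in the other 5. Atp5f1e, a small ATP synthase subunit, had 9.13 to 25.4 TPM in the Control WT rats and 34.3 to 76.4 TPM in the Control P1.hMR rats. Its SD was 0.93 over all unexposed rats and 0.55 within genotype, and no test between genotypes was made. Atp5f1a had 612 to 699 TPM.

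Of 8126 genes at a mean of 10 TPM or more, 3 fell into 2 separated levels, with a gap of at least 1 on the log2 scale that took up at least 0.7 of the range and at least 2 rats on each side. This rule was chosen after the values were seen. LOC102555453, described as like the ribosomal protein L12, was at 33.2 to 41.1 TPM in 6 rats and at 295, 311 and 321 TPM in Control P1.hMR rats 4, 3 and 2. In the UVB-exposed rats it was at 38.2 TPM in 1 and at 248 to 503 TPM in 7. AABR07049152.1 was listed at 0 TPM in 5 rats and at 31.0 to 39.0 TPM in 4, and among the UVB rats at 0 TPM in 6 and at 27.9 and 51.1 TPM in 2. H3f3c, a histone H3 variant gene, was at 82.0 and 76.5 TPM in Control WT rat 3 and Control P1.hMR rat 1 and at 14.8 to 18.1 TPM in the other 7, and among UVB rats at 62.9 TPM in 1 and at 13.4 to 19.8 TPM in 7. Both levels of AABR07049152.1 and H3f3c occurred in each genotype, while the 3 high unexposed rats for LOC102555453 were all P1.hMR. Acsf3, a mitochondrial acyl-CoA synthetase, had 3 levels, at 3.33 and 4.06 TPM in Control P1.hMR rats 3 and 2, at 23.4 to 25.3 TPM in the 4 Control WT rats and at 43.5 to 52.6 TPM in Control P1.hMR rats 1, 4 and 5, and all UVB rats were at 34.5 to 49.7 TPM. Acsf3 is singled out after its values were seen.

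**Figure D4:**
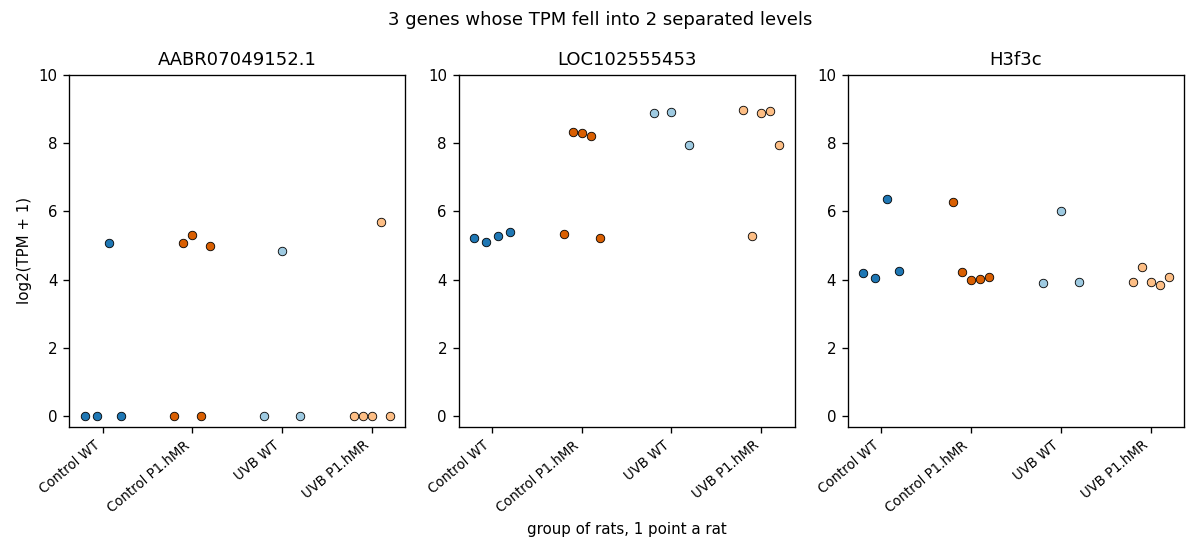
log2(TPM + 1) of AABR07049152.1, LOC102555453 and H3f3c, with 1 point per rat, for Control WT (n = 4), Control P1.hMR (n = 5), UVB WT (n = 3) and UVB P1.hMR (n = 5) rats. Each gene lies at 2 levels among the unexposed rats, with gaps of 5.00, 2.81 and 2.02 on this scale.

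To find which genes vary together, the 300 genes of largest SD at a mean of 5 TPM or more were grouped by their correlation over the 9 rats. Average linkage with a dividing distance of 0.3 gave 6 groups of at least 10 genes, which held 94 of the 300 genes. The groups were formed from these values, so their inner correlations are descriptions. The UVB rats were not used to form them, and their values, centred within genotype, are given beside.

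The largest group, of 26 genes, held macrophage genes with lipid and epithelial genes. Its most variable member was Pnoc, and its myeloid members included Lyz2, Spp1, Mmp12, Fcer1g, Tyrobp, C1qa, Ctss, Gpnmb, Cd207 and Spi1, the transcription factor of myeloid cells. Lyz2, the macrophage lysozyme, was at 314, 339 and 277 TPM in Control P1.hMR rat 4, Control WT rat 4 and Control P1.hMR rat 2, and at 85.7 to 210 TPM in the other 6. Averaged over the group, Control WT rat 4 was 0.77 above the mean on the log2 scale and Control WT rat 1 was at -0.74. The group also held Hpd, which breaks down tyrosine, Alox12e, an epidermal lipoxygenase, and Serpina12, which are not myeloid markers. Its pairs had a median r of 0.83, 0.77 to 0.86 with any 1 rat left out, and 0.48 within the UVB groups, where the median over pairs of the 300 genes was 0.02.

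The next group, of 18 genes, was highest in Control WT rat 1, at 0.85 above the mean, and then in Control WT rat 2, at 0.40. It held rat Nr3c2, the endogenous MR, at 25.9 and 17.2 TPM in these rats and at 9.27 to 11.8 TPM in the other 7. With it went Cyp17a1, a steroid hydroxylase, at 379, 327 and 312 TPM in Control WT rats 1 and 2 and Control P1.hMR rat 1 and at 140 to 192 TPM in the other 6. The amino acid transporters Slc7a5 and Slc7a8, the growth factor binding protein Igfbp4, the chemokine Cxcl1 and the lipid enzymes Acox3, Ephx2 and Pla2g4e were members too. The median r of its pairs was 0.78, 0.61 without Control WT rat 1, and 0.40 within the UVB groups. Reads of the human transgene and of Nr3c2 may be split between them by the quantification, so both levels are uncertain in P1.hMR rats.

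A group of 14 genes was highest in Control P1.hMR rats 5 and 4, at 1.12 and 1.01 above the mean, and lowest in Control WT rat 1, at -0.96. It was led by AABR07050084.1 and Gp2 and held Cyp4a8, a fatty acid hydroxylase, the protease Hpn, the glutathione transferases Gstm7 and Gstt3, and the interferon-induced genes Ifit2, Ifit3 and Ifi27. Ifi27 had 147 to 337 TPM. Its 14 genes had a median pairwise r of 0.81 in unexposed rats and 0.05 within the UVB groups, near the 0.02 of all pairs of the 300 genes.

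Another group of 14 genes was led by hair genes and held 5 members of the hair shaft list, Krt31, Krt34, Krt81, Krt83 and Krt86, with the keratin Kb23, keratin-associated proteins such as Krtap14 and LOC102553069, and Gprc5d, a receptor of the hair cortex. It also held the calcium channel genes Calhm4 and Orai2, and AC099183.3 and LOC100363136, which have no described function. They were highest in Control WT rat 4 and Control P1.hMR rat 2, at 0.67 and 0.64 above the mean, and lowest in Control P1.hMR rat 3, at -0.75. The median r of pairs was 0.88 in unexposed rats and 0.75 within the UVB groups, the highest of the 6 groups in both. The near-identical sequences of Krt81, Krt83 and Krt86 may share reads, which limits how far their values are independent.

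A group of 11 genes held Fcgbp and Krt8 with Msln, the secretory protein Wfdc2, the chemokine Ccl19 and Tmem176a and Tmem176b. It was highest in Control P1.hMR rat 4, at 0.77, and lowest in Control WT rat 1, at -0.68. Fcgbp was at 70.6 TPM in the first, at 17.9 TPM in the second and at 35.5 TPM in the median rat. Its pairs had a median r of 0.86, and 0.41 within the UVB groups.

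The last group, also of 11 genes, held Fkbp5, Tsc22d3, Zbtb16, Per1, Per2, Angptl7 and Fam107a, of which Fkbp5, Tsc22d3, Zbtb16 and Per1 are known targets of corticosteroid receptors. Fkbp5, a co-chaperone of these receptors, was at 53.8 and 62.8 TPM in Control WT rat 2 and Control P1.hMR rat 2, at 33.7 TPM in Control P1.hMR rat 1 and at 12.2 to 22.7 TPM in the other 6. Zbtb16 was at 12.5 and 13.5 TPM in the same 2 highest rats and at 1.48 to 6.22 TPM in the other 7. Tsc22d3, the glucocorticoid-induced leucine zipper, had 94.5 and 93.0 TPM in them and 28.8 to 68.7 TPM in the rest. The high rats came from both genotypes. Control P1.hMR rat 4 had the lowest group mean at -0.70, and its Angptl7 was at 4.87 TPM, against 45.4 TPM in Control P1.hMR rat 2. These 11 genes had a median pairwise r of 0.79, and 0.55 within the UVB groups. Per1 and Per2 are also clock genes, and the part of collection time in these values was not tested.

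**Figure D5:**
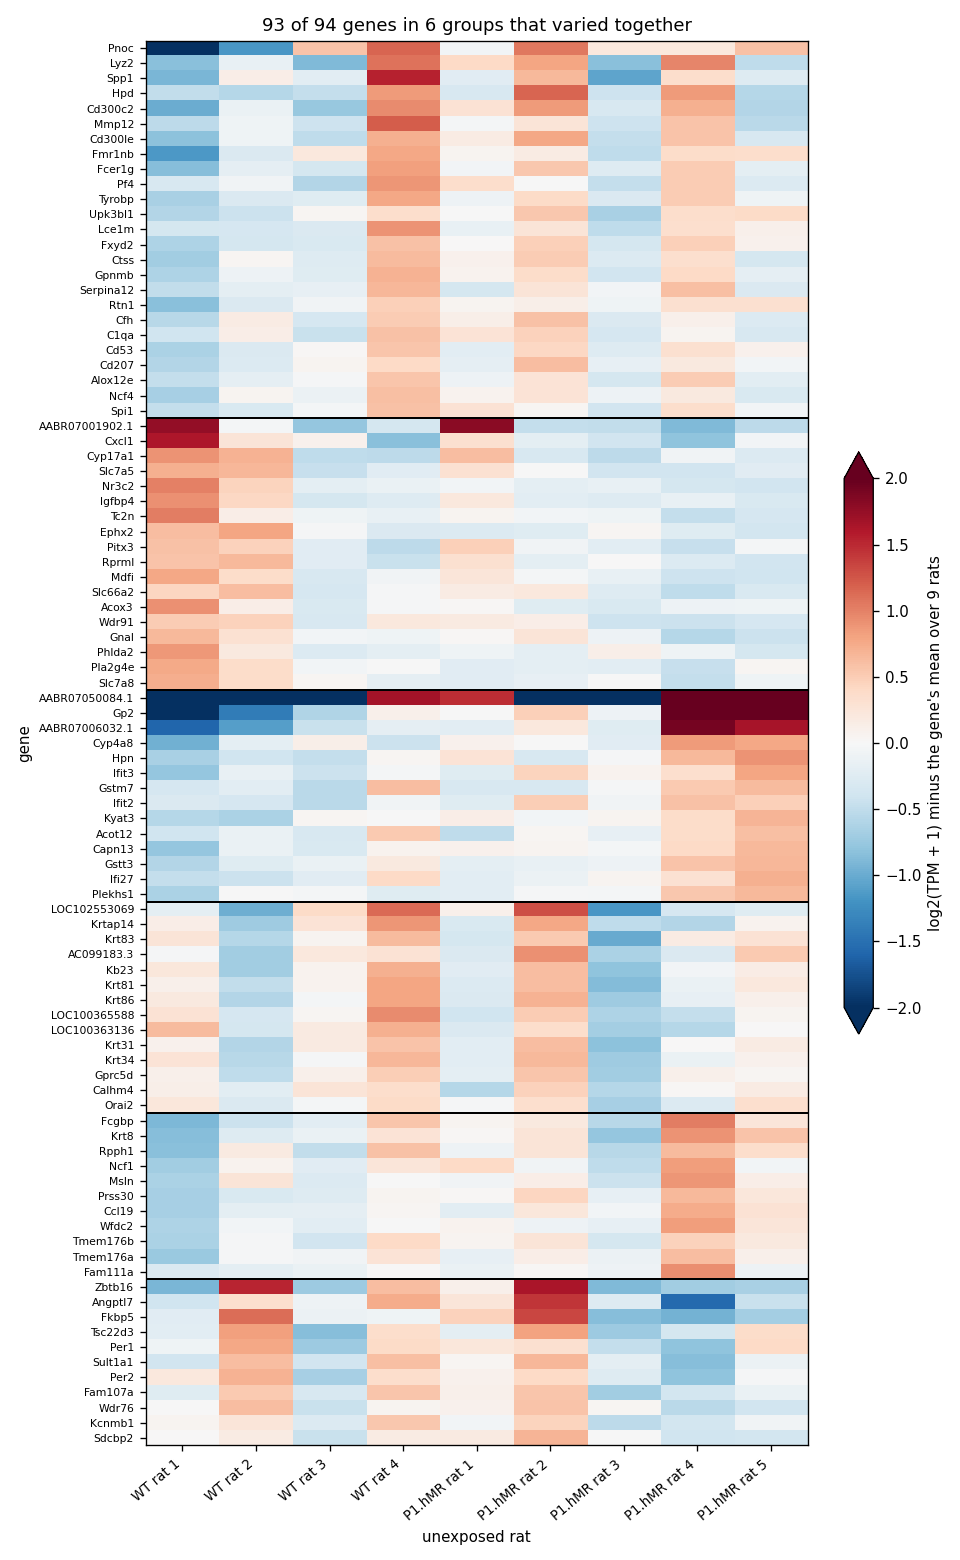
Difference of log2(TPM + 1) from each gene's mean over the 9 unexposed rats, for 93 of the 94 genes of the 6 groups, 1 row per gene and 1 column per rat, with colours limited at 2 and -2 and black lines between groups. Red is above and blue below the mean, with Control WT rat 4 in the macrophage-led group at the top and Control P1.hMR rats 4 and 5 in the group led by AABR07050084.1.

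Along the principal components of the 12662 genes, no single axis dominated. The first held 26.1% of the variance, with Control WT rat 1 at one end and Control P1.hMR rat 4 at the other, and the next 3 held 14.8, 12.7 and 11.4% in turn. The genes of largest weight at 10 TPM or more on the first were AABR07050084.1, Gp2, SNORA63 and Pnoc at one end and LOC103690821, LOC103694169 and SNORA70 at the other.

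The genes that varied most between unexposed rats were often those that varied most between UVB-exposed rats of 1 genotype. Of the 300 genes of largest SD, 157 (52.3%) were among the 300 of largest SD within the UVB groups, where 300 genes are 3.03% of the 9902 ranked. Of the 94 genes in the 6 groups, 11 of the 14 of the Krt31 group were in this overlap, 8 of the 11 of the Fcgbp group, 8 of the 14 of the Gp2 group, 7 of the 18 of the Nr3c2 group, 5 of the 11 of the Fkbp5 group and 6 of the 26 of the macrophage-led group.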

How the data were processed

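RNA of the MG was measured in 17 female rats, 1 deposited column per rat, grouped by their labels. Reads were placed on the rn7 genome by STAR 2.5.3 and turned into gene values by RSEM 1.2.28 (methods of the study), and the authors deposited these as TPM, to 2 decimals, for 17251 genes, and their processing notes also name DRAGEN, FastQC, Picard and Trimmomatic with no role given. The listed genes held 80.4 to 83.4% of the full TPM total in the unexposed rats, and depth is unknown from TPM. Values were analysed as log2(TPM + 1) in Python 3.11.15 with numpy 2.4.6, scipy 1.17.1 and pandas 2.3.3, and plotted with matplotlib 3.10.9. SDs, counts and correlations are descriptions. The lead gene pairs had the only test, a two-sided exact permutation of rats with Benjamini-Hochberg adjustment over 15 pairs. Each p-value is the share of all re-pairings of the rats whose correlation was at least as large in absolute value. The code was tested on simulated data. Named genes were the lead genes and Elovl4, the 20 highest by mean and by SD, each list's lead, highest and most variable gene, the 5 neighbours of each lead gene, NR3C2 and Nr3c2, and the leading genes of each group. Other list members are described with their list, and a few genes are not reported here, in the text or the plots, though they stay in counts and sums. The members and lists were chosen with earlier results of these data known. Promoters came from RefSeq (GRCr8), where 9536 of the 12662 genes matched by symbol, and no rn7 coordinate was used. Alternatives were a pseudocount of 0.1, other filters, median-of-ratios scaling, rescaling without skeletal muscle genes, values within genotype, Spearman rho and each rat left out. Those for the groups of genes that varied together, and the rule for 2 levels, were chosen after seeing the data.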

Additional observations from a re-analysis of the deposited data

Results flagged for a closer look

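Of 169 values tested, the named genes and the 25 list sums, 8 had a rat that stood apart from the other 8 on the log2 scale by more than Dixon's 95% limit. This is 4.73%, and 5 of the 8 were in Control WT rat 1. Many of the values were chosen by their spread or correlation in these same rats, and some overlap. The share can therefore not be set against a chance rate. In that rat Cst6 was at 2203 TPM, against 2955 to 3954 TPM in the others, Egfl7 at 13.2 TPM against 16.8 to 20.8 TPM, and the endothelium list at 54.2 TPM against 63.8 to 71.3 TPM. Pcna, at 114 TPM against 82.9 to 94.6 TPM, and Cxcl1, at 18.4 TPM against 2.56 to 6.93 TPM, were high there. ENSRNOG00000060816 was listed at 0 TPM in Control WT rat 4 and at 7.04 to 36.8 TPM in the others. Cd3g was at 0.79 TPM in Control P1.hMR rat 3, against 1.75 to 3.08 TPM. Lpo, a lactoperoxidase of lacrimal tissue, was at 4.53 TPM in Control P1.hMR rat 5, against 0.34 to 1.08 TPM. Their causes were not tested.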

How the results depend on the processing

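No paired analysis was possible because no groups were compared. The 262 genes with an SD of at least 0.5 became 472 with a pseudocount of 0.1 and 118 at a mean of at least 5 TPM, which tests fewer genes, and 249 to 274 without 1 rat. The first principal component held 28.8% at a mean of at least 5 TPM and 24.5 to 29.0% without 1 rat. Genes at 0.8 with Krt79 numbered 82 centred within genotype, and with Krt27 58 by Spearman rho and 56 centred within genotype. Without 1 rat, these counts ran from 83 to 275 for Awat2, 50 to 109 for Krt79, 48 to 112 for Krt27, 176 to 291 for Acta1, 227 to 564 for Col1a1 and 167 to 575 for Ptprc. Signs turned for Awat2 and Krt79 (r = 0.18 with median-of-ratios scaling), Awat2 and Acta1 (rho = 0.13) and Acta1 and Ptprc (rho = -0.12, and r = -0.033 with that scaling). Without 1 rat, r ran from -0.33 to 0.33 for Awat2 and Krt79, -0.27 to 0.50 for Awat2 and Acta1, -0.13 to 0.28 for Krt79 and Krt27, -0.51 to 0.00575 for Krt79 and Col1a1, -0.45 to 0.24 for Krt27 and Ptprc, -0.22 to 0.24 for Acta1 and Ptprc and -0.47 to 0.65 for Col1a1 and Ptprc. No lead gene pair passed an adjusted p of 0.05 by exact permutation under any of the 14 alternatives run. Of the 647 alternative values, 583 were classed as unchanged. For this, a correlation of lead genes had to keep its sign and its side of the threshold. A count had to stay within a set ratio of the main value, and other values had to move by no more than the spread. Groups of 10 or more genes numbered 4 to 8 without 1 rat. In the rescaling without skeletal muscle genes, Acta1 kept a value scaled like the other genes. The causes of these changes were not tested. Read depth is unknown, so counting error at low TPM could not be separated from spread between rats.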
